A study of Mus musculus with 22 samples.

Results

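Na,K-ATPase, the sodium pump, is described here through 5 genes in mouse kidney, Atp1b1 and Atp1b3, which encode beta subunits, and Fxyd2, Fxyd4 and Fxyd5, which encode small regulators of the FXYD family. The genes were chosen by name, with earlier results of these data known. All 5 were present among the 32858 genes with counts and among the 17131 genes that could be tested. The study asked whether istradefylline (KW6002), an adenosine receptor antagonist, limits the kidney toxicity of the platinum drug cisplatin. The 22 RNA-Seq libraries were made from kidneys of male C57Bl6/J mice aged 8 to 10 weeks. There were 4 groups of mice, and n counts libraries. The Vehicle group (n = 5) received the carrier solution, for which no schedule of its own is given in the sources used here, and the KW6002 group (n = 6) received KW6002 at 3 mg/kg per day from day -5 to day 7. The Cisplatin group (n = 5) received 6 injections of cisplatin at 3 mg/kg, and the Cisplatin + KW6002 group (n = 6) received both. Kidneys from cisplatin-treated mice were collected 72 hours after the last injection.

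The sodium pump sits in the basolateral membrane of tubule cells, where it exports sodium in exchange for potassium and so powers the uptake of sodium and sodium-coupled solutes from the urine. The catalytic alpha subunit needs a beta subunit to fold and reach the membrane, and FXYD proteins associate with the pair and tune its affinity for sodium and potassium. FXYD2, the gamma subunit, is found along the proximal tubule, the thick ascending limb and the distal convoluted tubule, and mutation of its human gene causes renal magnesium loss. FXYD4, also called CHIF, is a pump regulator of the collecting duct, and FXYD5, also called dysadherin, is better known for reducing adhesion between epithelial cells.

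The coding bases around the motif that names the family are shown for the 3 FXYD genes because they are what these otherwise unlike genes share. Each line gives 60 coding bases of the longest complete coding transcript in GENCODE M21 (build mm10), read 5′ to 3′ on the coding strand, with the codons for phenylalanine, any residue, tyrosine and aspartate in capitals.
Fxyd2: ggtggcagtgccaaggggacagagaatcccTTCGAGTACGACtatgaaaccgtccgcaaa
Fxyd4: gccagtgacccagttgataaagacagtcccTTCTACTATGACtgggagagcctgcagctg
Fxyd5: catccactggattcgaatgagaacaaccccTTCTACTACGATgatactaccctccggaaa
The motif occurred once in frame in each of these transcripts. It began at codon 17 of 64 in Fxyd2, at codon 30 of 99 in Fxyd4 and at codon 136 of 185 in Fxyd5, so that Fxyd5 had by far the longest stretch before it. An exon junction fell after base 10 of the 12 motif bases in all 3 genes, and the motif therefore spanned chr9:45408135-45408301 on the plus strand in Fxyd2, chr6:117934499-117935018 on the minus strand in Fxyd4 and chr7:31035282-31035395 on the minus strand in Fxyd5. The 60 bases were identical at 29 positions between Fxyd2 and Fxyd4, at 30 between Fxyd2 and Fxyd5, and at 25 between Fxyd4 and Fxyd5.

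The genes lie apart in the genome except where the family is clustered. In mm10, Fxyd2 occupies chr9:45399669-45410278 on the plus strand, 3509 bases from Fxyd6. Fxyd5 occupies chr7:31032722-31042481 on the minus strand, and a gap of 31 bases separates it from Fxyd7, the next gene of the family, on the same strand. Fxyd4 is at chr6:117933559-117937692, Atp1b1 at chr1:164437109-164458355 and Atp1b3 at chr9:96332655-96364442, all on the minus strand. Exons of Atp1b1 share 575 bases with exons of Nme7 on the opposite strand, and the use of strand in counting was not stated in the sources used here.

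Libraries held between 26471762 and 40510754 counts. Values below are CPM, counts divided by the library total after scaling by TMM factors, which correct that total for composition, and fold changes and adjusted p-values come from the quasi-likelihood test of edgeR with Benjamini-Hochberg adjustment over 17131 genes. A gene passed at an adjusted p below 0.05. Of the library labels, 3 in Vehicle and 3 in KW6002 bore a number in the 300s and the rest one in the 500s, among them every cisplatin-treated kidney. What these numbers stand for is not stated. Within the groups without cisplatin, Atp1b1 differed between the 2 number series without overlap, at 2383 to 2796 CPM in the 300s and 2874 to 2952 CPM in the 500s for Vehicle, and at 2525 to 2631 CPM against 2979 to 3088 CPM for KW6002. Results for the 500s alone (2 Vehicle, 3 KW6002, 5 Cisplatin and 6 Cisplatin + KW6002 libraries) are therefore given beside the main results. Defining markers of tubule segments and of the collecting duct were detected in all groups. In whole-kidney RNA a smaller number of cells of a type and less RNA per cell cannot be told apart.

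Per kilobase of merged exons, Atp1b1 was the most abundant of the 5 genes in Vehicle kidneys (871 ± 86.7 CPM per kb, SD, n = 5), followed by Fxyd2 (484 ± 30.8), Atp1b3 (34.6 ± 2.68), Fxyd4 (12.2 ± 4.38) and Fxyd5 (2.89 ± 0.659). Per kilobase of the longest coding transcript the first 2 places were exchanged, with Fxyd2 at 2836 ± 180 CPM per kb and Atp1b1 at 1040.0 ± 104, because the merged exons of Fxyd2 cover 4005 bases and its longest coding transcript only 684. The order of the other 3 genes was the same on both lengths. In Cisplatin kidneys the order per kilobase of merged exons was again Atp1b1 (785 ± 41.9, n = 5), Fxyd2 (216 ± 18.8), Atp1b3 (41.2 ± 1.70), Fxyd4 (23.8 ± 1.48) and Fxyd5 (7.03 ± 0.496), with a narrower distance between Fxyd2 and the genes below it.

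**Figure D1:**
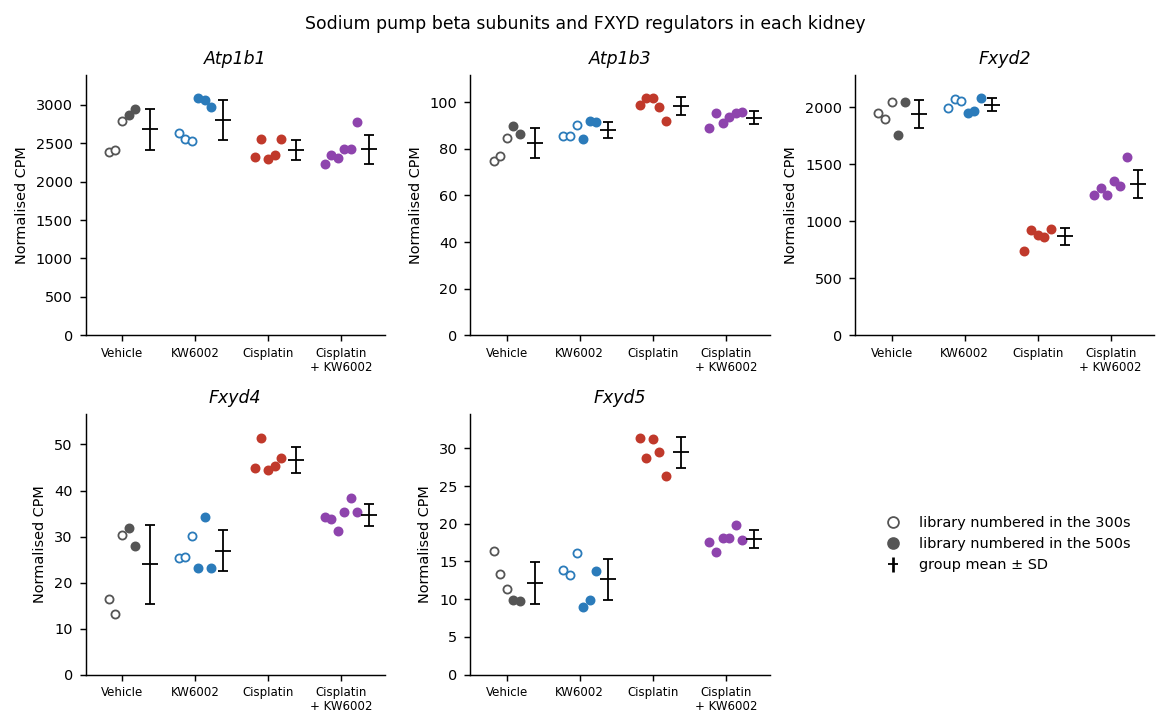
Normalised CPM (vertical axes, linear, from 0) of the 5 genes in each of the 22 kidneys by treatment group, with open points for libraries numbered in the 300s, filled points for the 500s, and bars for the group mean ± SD. Fxyd2 stood between 742 and 930.2 CPM in Cisplatin, between 1227 and 1559 CPM in Cisplatin + KW6002 and at 1754 CPM or more in Vehicle and KW6002, whereas Fxyd4 and Fxyd5 were highest in Cisplatin.

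For Cisplatin against Vehicle 4 of the 5 genes passed the test. Fxyd2 fell to 0.447 times its Vehicle level, whereas Fxyd5 rose 2.43-fold, Fxyd4 1.94-fold and Atp1b3 1.19-fold. With 70.5% of all tested genes past the same threshold in this comparison (34.6% higher and 35.9% lower), this count is not particular to the 5 genes. Their median log2 fold change was 0.25, against -0.01 over all tested genes. The same 4 genes had no overlap between the groups, which held for 55.3% of all tested genes. At the study's thresholds, which ask for an adjusted p under 0.01 together with a log2 change larger than 1, 24.1% of tested genes were called, Fxyd2 and Fxyd5 among them.

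Atp1b1 encodes beta 1, the main beta subunit of the kidney. In Vehicle kidneys its level was 2383, 2410.5, 2796, 2874 and 2952 CPM in replicates 1 to 5. In Cisplatin kidneys it was 2325, 2562, 2302, 2347 and 2555 CPM. The ranges overlapped, since Vehicle replicates 1 and 2, both in the 300s, lay among the Cisplatin values.

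The log2 fold change of Atp1b1 for Cisplatin against Vehicle was -0.15 (SE 0.08, 95% interval -0.32 to 0.01, adjusted p = 0.0969). Among the libraries of the 500s it was -0.27 (SE 0.09, adjusted p = 0.0111), and with the number series as a covariate it was -0.28 (SE 0.07, adjusted p = 0.00159), so that the gene passed in both of these fits. In them 63.1% and 68% of all genes passed. Scaling by library size alone, which moved the median of all genes to 0.20, gave 0.067 for Atp1b1, and without Vehicle replicate 1 or Vehicle replicate 2 the gene also passed, at -0.19 in each case.

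Atp1b3 encodes beta 3, a more widely expressed beta subunit that is a minor one in this organ. Its level was 74.9, 77.0, 84.5, 89.96 and 86.5 CPM in Vehicle replicates 1 to 5. The 5 Cisplatin kidneys had 99.0, 101.7, 101.6, 97.8 and 91.8 CPM. Every Cisplatin value was above every Vehicle value, by a narrow margin at 91.8 against 89.96 CPM. The log2 fold change was 0.25 (SE 0.05, adjusted p = 7.45e-05), a rise of 1.19-fold, and among the 500s it was 0.15 (SE 0.06, adjusted p = 0.0297).

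Sequence before the start of both beta genes is shown as a description. A link between this sequence and the levels of the genes was not tested. The windows shown are from RefSeq (GRCm38.p6), read 5′ to 3′ in the direction of the gene. They end next to the annotated start of the gene, with matches to GGGCGG or CCAAT on either strand in capitals.
Atp1b1 (chr1:164458356-164458605, minus strand): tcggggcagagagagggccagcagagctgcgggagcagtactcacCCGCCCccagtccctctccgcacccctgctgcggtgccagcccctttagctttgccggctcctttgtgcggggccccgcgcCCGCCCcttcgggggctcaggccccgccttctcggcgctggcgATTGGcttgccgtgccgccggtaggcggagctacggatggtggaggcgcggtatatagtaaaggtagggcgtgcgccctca
Atp1b3 (chr9:96364443-96364681, minus strand): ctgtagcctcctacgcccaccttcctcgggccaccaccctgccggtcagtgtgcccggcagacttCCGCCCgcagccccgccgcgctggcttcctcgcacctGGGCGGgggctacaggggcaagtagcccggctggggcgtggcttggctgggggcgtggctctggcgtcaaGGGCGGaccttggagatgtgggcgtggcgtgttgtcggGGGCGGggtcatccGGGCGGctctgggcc
The 250 bases before the start held 2 matches to GGGCGG and 1 to CCAAT in Atp1b1, and 5 matches to GGGCGG in Atp1b3. For Atp1b3 the last 11 of the 250 bases are annotated as exon and are not shown. A second Atp1b3 window, whose 250 bases all lie inside the gene as placed above, held neither motif. Over all 32851 promoter windows of 250 bases, 32.7% held GGGCGG and 33.8% held CCAAT on either strand. These shares are not matched for base content. G and C made up 70.4% of the Atp1b1 window and 73.6% of the first Atp1b3 window, against a median of 52.4% over all windows. Of the FXYD genes, Fxyd4 had 1 match to GGGCGG in its window and Fxyd5 none. By the gene positions given above, however, all 250 bases of the Fxyd4 window lie inside the gene. For Fxyd5 150 of the 250 bases do, so these windows mostly do not describe sequence before the start. The windows of Atp1b1, Atp1b3, Fxyd4 and Fxyd5 held no match to TGANTCA, which occurred in 6.75% of all windows. They also held none to AGAACA, found in 16.1% of windows, to GTTAAT, found in 6.43%, or to TATAAA, found in 12.4%. No matches to different motifs overlapped.

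Of the 5 genes, Fxyd2 had the smallest adjusted p. Vehicle replicates 1 to 5 had 1953, 1893, 2049, 1754 and 2049.7 CPM. The 5 Cisplatin kidneys had 742, 921, 875, 864 and 930.2 CPM. The highest Cisplatin value was thus well below the lowest Vehicle value. The log2 fold change was -1.16 (SE 0.07, adjusted p = 1.41e-12), which is a level of 0.447 times Vehicle, and it was -1.14 (SE 0.10, adjusted p = 2.49e-08) among the 500s.

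Fxyd4 was far less abundant. Vehicle replicates 1 to 5 had 16.4, 13.2, 30.3, 31.9 and 28.0 CPM, from 505, 329, 902, 907 and 861 counts. The 5 Cisplatin kidneys had 44.8, 51.5, 44.6, 45.3 and 47.1 CPM. All Cisplatin values were above all Vehicle values, and Vehicle replicates 1 and 2 were the lowest of the 22 libraries. The log2 fold change was 0.96 (SE 0.17, adjusted p = 2.59e-05), a rise of 1.94-fold. Among the 500s, which leave out the 2 low libraries, it was 0.63 (SE 0.12, adjusted p = 2.60e-04).

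Fxyd5 was the least abundant of the 5 genes and rose the most. Vehicle replicates 1 to 5 had 16.4, 13.3, 11.3, 9.90 and 9.76 CPM, from 281 to 505 counts. The Cisplatin kidneys had 31.4, 28.8, 31.2, 29.5 and 26.3 CPM. The groups did not overlap, and within Vehicle the libraries of the 500s were the lowest. The log2 fold change was 1.28 (SE 0.14, adjusted p = 1.81e-08), a rise of 2.43-fold, and it was 1.58 (SE 0.13, adjusted p = 1.27e-08) among the 500s.

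Marker genes of nephron segments moved in the same comparison. The summed level of 7 proximal tubule markers was 18966 to 20308 CPM in Vehicle and 3713 to 5634 CPM in Cisplatin, that of 5 thick ascending limb markers 6456 to 10277 CPM and 2067 to 2379 CPM, and that of 4 distal convoluted tubule markers 1885 to 2142 CPM and 83.6 to 195 CPM. Each of these markers fell, in the segments where Fxyd2 is known to be made. Of 5 principal cell markers of the collecting duct, the segment of Fxyd4, Aqp2 rose (log2 fold change 1.41, adjusted p = 2.46e-05), Scnn1g fell and 3 did not pass, and their sum was 335 to 572 CPM in Vehicle and 566 to 833 CPM in Cisplatin. The 4 injured tubule markers all rose, from 16.8 to 23.1 CPM to 1288 to 2423 CPM. Of 4 fibroblast markers 3 rose, with sums of 102.2 to 201 CPM and 373 to 457 CPM. In Cisplatin + KW6002 the sums were 8072 to 11918 CPM for proximal tubule, 2551 to 4723 CPM for thick ascending limb, 304 to 602 CPM for distal convoluted tubule, 473 to 843 CPM for principal cell, 352 to 752 CPM for injured tubule and 196 to 329 CPM for fibroblast markers. The 4 fat markers did not pass for Cisplatin against Vehicle, with sums of 29.1 to 363 CPM in Vehicle and 130 to 235 CPM in Cisplatin, and all 4 were lower in Cisplatin + KW6002 than in Cisplatin, at 3.14 to 84.2 CPM. The part of these shifts in the changes of Fxyd2, Fxyd4 and Fxyd5 was not tested.

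Adding KW6002 to cisplatin moved the FXYD genes back towards their Vehicle levels, while neither beta subunit passed the test. For Cisplatin + KW6002 against Cisplatin 3 of the 5 genes passed, the FXYD genes, against 55.8% of all tested genes (28.6% higher and 27.2% lower). Their groups did not overlap, as for 37.8% of tested genes. This comparison and the one above share the Cisplatin libraries. The median log2 fold change of the 5 genes was -0.08, against 0.01 over all tested genes.

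Fxyd2 ranged from 1227 to 1559 CPM in Cisplatin + KW6002, with a median of 1303, and was above all 5 Cisplatin kidneys. Its log2 fold change against Cisplatin was 0.62 (SE 0.07, adjusted p = 8.07e-08), a rise of 1.53-fold. Fxyd5 ranged from 16.2 to 19.9 CPM with a median of 17.97, below all Cisplatin kidneys. Its log2 fold change was -0.71 (SE 0.13, adjusted p = 5.23e-05), to 0.61 times the Cisplatin level.

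Fxyd4 ranged from 31.1 to 38.4 CPM with a median of 34.8, again below all Cisplatin kidneys. Its log2 fold change was -0.43 (SE 0.16, adjusted p = 0.0260). The gene no longer passed without Cisplatin replicate 2, its highest library (-0.39, adjusted p = 0.0629), or without Cisplatin + KW6002 replicate 3, the lowest of its group (-0.40, adjusted p = 0.0514). Over the 11 libraries of these 2 groups alone the value was -0.42 (SE 0.06, adjusted p = 2.62e-05).

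Atp1b1 ranged from 2228 to 2784 CPM with a median of 2389 in Cisplatin + KW6002, across the whole range of Cisplatin. Its log2 fold change was 0.0020 (SE 0.08, 95% interval -0.16 to 0.16, adjusted p = 0.984). Atp1b3 ranged from 88.9 to 95.7 CPM with a median of 94.5, which overlapped Cisplatin replicate 5 only. Its log2 fold change was -0.08 (SE 0.05, 95% interval -0.17 to 0.02, adjusted p = 0.171). Scaling by library size alone, which moved the median of all genes to -0.05, gave -0.14 for Atp1b3 with an adjusted p of 0.0141.

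**Figure D2:**
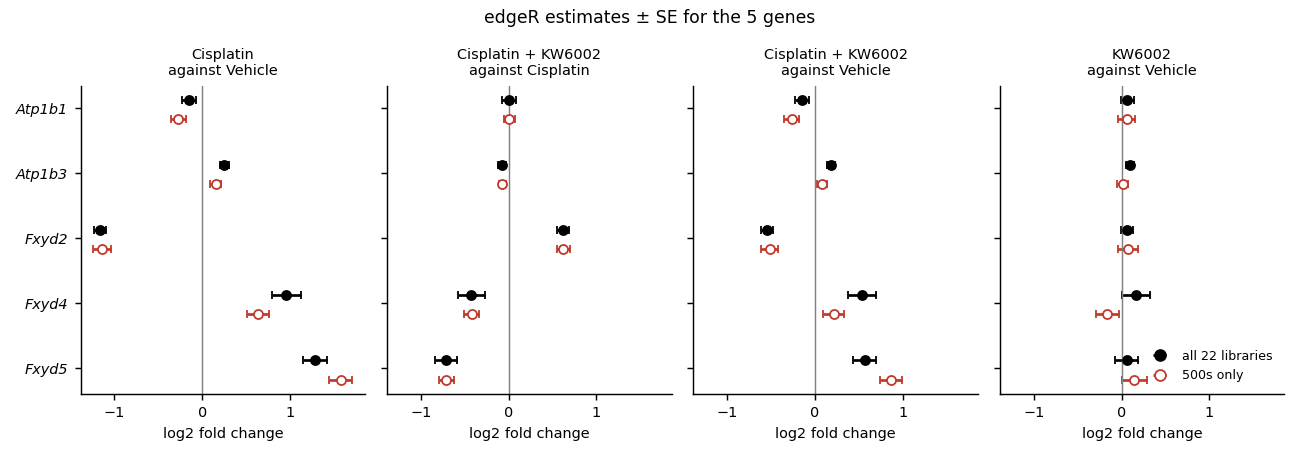
Log2 fold changes (horizontal axes) with standard errors of the 5 genes in 4 comparisons, for all 22 libraries (filled black) and for the libraries of the 500s alone (open red). Fxyd2 lay left of 0 and Fxyd5 right of 0 in both comparisons of cisplatin-treated with Vehicle kidneys, and both crossed over when Cisplatin + KW6002 was set against Cisplatin.

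For none of the 5 genes did KW6002 without cisplatin pass the test. For KW6002 against Vehicle, edgeR passed 0 of the 5 at the adjusted threshold, 0 at an unadjusted p below 0.05, and DESeq2 passed 0. Across all tested genes 0.0175% passed and 11.3% had an unadjusted p below 0.05. All 5 genes overlapped between the groups, while 1.38% of all tested genes did not. Fxyd2 was 1952 to 2079 CPM with a median of 2023 in KW6002, a log2 difference of 0.06 (95% interval -0.08 to 0.20, adjusted p = 0.777). Atp1b3 came nearest to the threshold, at 84.1 to 92.1 CPM with a median of 87.9 and a log2 difference of 0.09 (95% interval -0.0027 to 0.19, adjusted p = 0.452), but of 0.016 among the 500s (adjusted p = 0.969).

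The remaining 3 genes had wider intervals. Atp1b1 was 2525 to 3088 CPM with a median of 2805 (log2 difference 0.06, 95% interval -0.09 to 0.22). Fxyd4 was 23.1 to 34.2 CPM with a median of 25.4 (0.16, -0.17 to 0.50), and Fxyd5 was 8.98 to 16.1 CPM with a median of 13.5 (0.06, -0.21 to 0.34). For Fxyd4 the sign depended on the number series, with -0.16 among the 500s (adjusted p = 0.741). Differences of the size seen with cisplatin for Fxyd2, Fxyd4 and Fxyd5 lay outside these intervals.

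The difference between the KW6002 effect with and without cisplatin was tested directly. It passed for 4 of the 5 genes, against 42.7% of all tested genes (22.8% higher and 19.9% lower). The difference was 0.56 for Fxyd2 (log2, SE 0.09, adjusted p = 5.82e-05), -0.77 for Fxyd5 (SE 0.18, adjusted p = 0.00171), -0.59 for Fxyd4 (SE 0.23, adjusted p = 0.0402) and -0.17 for Atp1b3 (SE 0.07, adjusted p = 0.0414). Fxyd4 and Atp1b3 lost the call among the 500s (-0.26, adjusted p = 0.221, and -0.09, adjusted p = 0.397), in which 34.1% of genes passed. They also lost it without any low-count filter. For Fxyd4 the call was lost without any one of 11 libraries (Vehicle 1 and 2, KW6002 3 and 5, Cisplatin 2, 4 and 5, and Cisplatin + KW6002 1 to 4), with values of -0.60 to -0.44. For Atp1b3 it was lost without any one of 12 libraries (Vehicle 1 and 2, KW6002 3, 5 and 6, Cisplatin 1 to 4, and Cisplatin + KW6002 1, 3 and 4), with values of -0.17 to -0.13. For Atp1b1 the difference was -0.06 (SE 0.11, 95% interval -0.29 to 0.16, adjusted p = 0.671).

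Cisplatin + KW6002 kidneys still differed from Vehicle in 4 of the 5 genes, against 59.7% of all tested genes (29.8% higher and 29.9% lower). Fxyd2 remained lower (log2 fold change -0.55, SE 0.07, adjusted p = 3.29e-07), at 0.685 times Vehicle. It was the only one of the 5 without overlap between the groups, as were 37.5% of all tested genes. Fxyd5 was higher by 0.57 (SE 0.13, adjusted p = 7.98e-04), with Vehicle replicate 1 inside the range of the co-treated kidneys, and by 0.87 among the 500s (SE 0.13, adjusted p = 2.41e-05).

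Fxyd4 was higher by 0.53 (SE 0.16, adjusted p = 0.00728), but by 0.21 among the 500s (SE 0.12, adjusted p = 0.156) and by 0.40 with the number series as a covariate (adjusted p = 0.0609), a fit in which 56% of genes passed. Atp1b3 was higher by 0.18 (SE 0.05, adjusted p = 0.00238), and by 0.08 among the 500s (SE 0.06, adjusted p = 0.252). Atp1b1 was at -0.15 (SE 0.08, adjusted p = 0.0984), and passed at -0.27 among the 500s (SE 0.09, adjusted p = 0.0151), in which 48.3% of genes passed, and at -0.19 without Vehicle replicate 1 or without Cisplatin + KW6002 replicate 6. Scaling by library size alone, which moved the median of all genes to 0.16, gave 0.0086. This comparison shares the Vehicle libraries with Cisplatin against Vehicle.

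Reads of the FXYD genes set against those of Atp1b1 in the same library describe the balance of the genes without depending on scaling between libraries. Per 100 Atp1b1 counts there were 72.8 ± 8.17 Fxyd2 counts in Vehicle (SD, n = 5), 35.8 ± 2.32 in Cisplatin (n = 5), 54.9 ± 1.09 in Cisplatin + KW6002 (n = 6) and 72.6 ± 8.07 in KW6002 (n = 6). The 2 cisplatin-treated groups, all of the 500s, were well apart, at 31.9 to 38.0 and 53.1 to 56.0. Vehicle replicates 4 and 5, also of the 500s, had ratios of 61.0 and 69.4. Vehicle replicates 1 to 3, of the 300s, had higher ratios of 81.9, 78.5 and 73.3. The Vehicle mean therefore lies farther from the cisplatin-treated groups than the Vehicle libraries of the 500s do. Cisplatin + KW6002 replicate 6, the library with the most Atp1b1 and Fxyd2 of its group, had a ratio of 56.0.

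The ratios of the other FXYD genes went the opposite way. Fxyd5 had 0.463 ± 0.152 counts per 100 Atp1b1 counts in Vehicle, 1.22 ± 0.144 in Cisplatin and 0.745 ± 0.0679 in Cisplatin + KW6002. Fxyd4 had 0.876 ± 0.249, 1.93 ± 0.0597 and 1.44 ± 0.117 in the same groups. In Vehicle replicates 4 and 5, of the 500s, the Fxyd5 ratio was 0.344 and 0.331. In Vehicle replicates 1 to 3, of the 300s, it was 0.686, 0.552 and 0.404. The Fxyd4 ratio was 1.11 and 0.949 in replicates 4 and 5, and 0.686, 0.547 and 1.08 in replicates 1 to 3. Between both beta genes, Atp1b3 had 3.08 ± 0.105 counts per 100 Atp1b1 counts in Vehicle. It had 4.08 ± 0.316 in Cisplatin and 3.87 ± 0.222 in Cisplatin + KW6002. The Vehicle range of 2.93 to 3.19 lay below both cisplatin-treated ranges. KW6002 libraries ranged from 2.72 to 3.58. Their range overlapped Cisplatin + KW6002, at 3.44 to 4.06, and lay just below Cisplatin, at 3.59 to 4.41. Fxyd5 per 100 Fxyd2 counts went from 0.626 ± 0.144 in Vehicle to 3.44 ± 0.530 in Cisplatin and 1.36 ± 0.142 in Cisplatin + KW6002. These ratios compare read numbers and not molecules, since the genes differ in length, and they were not tested.

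**Figure D3:**
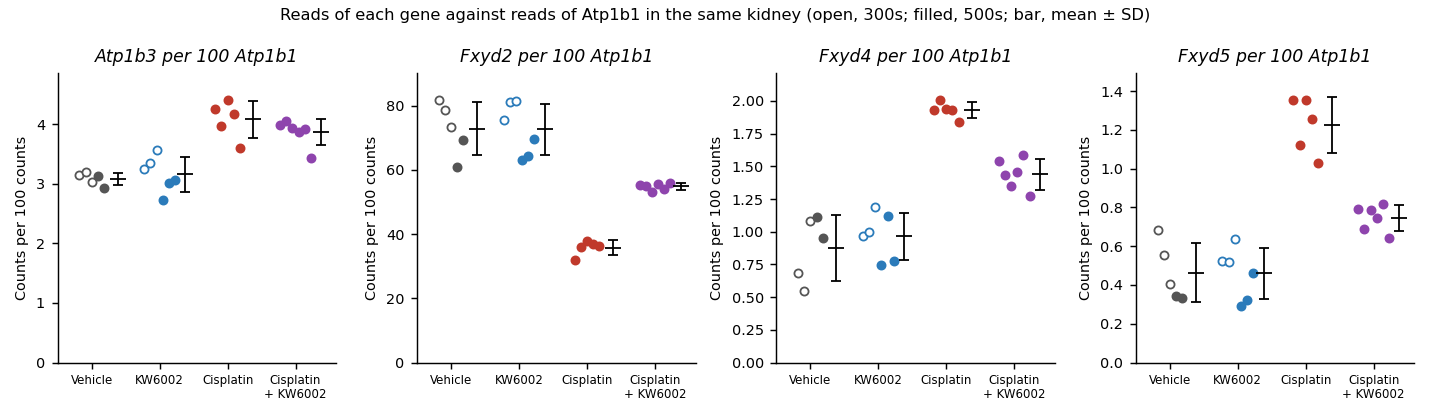
Counts of Atp1b3, Fxyd2, Fxyd4 and Fxyd5 per 100 counts of Atp1b1 in the same kidney (vertical axes, from 0), with open points for libraries of the 300s, filled points for the 500s, and bars for the mean ± SD. The Fxyd2 ratio lay between 31.9 and 38.0 in Cisplatin and between 53.1 and 56.0 in Cisplatin + KW6002, and the Vehicle and KW6002 libraries reached from 61.0 to 81.9.

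Atp1b2, the beta 2 subunit known mainly from glia, had 15.5 ± 3.94 CPM in Vehicle, 22.6 ± 4.01 in Cisplatin and 12.8 ± 1.78 in Cisplatin + KW6002. It rose by 0.54 with cisplatin (SE 0.14, adjusted p = 0.00206), with no call among the 500s (0.27, adjusted p = 0.122), and fell by 0.82 when KW6002 was added (SE 0.14, adjusted p = 2.94e-05). Its level in Cisplatin replicate 1, at 29.7 CPM, was well above the others of the group.

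Of 4 other FXYD genes 3 could be tested, and Fxyd7 had too few counts. Fxyd3, known from colon and stomach epithelium and from tumours, rose with cisplatin (log2 fold change 1.99, SE 0.46, adjusted p = 5.97e-04) from a very low level of 0.432 ± 0.413 CPM (3 to 25 counts per library) to 1.68 ± 0.451 CPM. With KW6002 added it had a log2 fold change of -1.12 against Cisplatin (SE 0.40, adjusted p = 0.0220), a call lost without any one of 4 libraries (Cisplatin 3 and 5, and Cisplatin + KW6002 5 and 6). Its exons share 2059 bases with exons of Lgi4 on the opposite strand. Fxyd1 (phospholemman, the regulator of heart and muscle) had a log2 fold change of 0.21 (SE 0.18, adjusted p = 0.314). Fxyd6, the neighbour of Fxyd2, was at 5.32 ± 0.749 CPM in Vehicle and 5.31 ± 0.577 CPM in Cisplatin, a log2 fold change of -0.0031 (SE 0.11, adjusted p = 0.981), beside the -1.16 of Fxyd2 at a distance of 3509 bases.

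Of the proton-potassium pumps, which are related to the sodium pump, Atp4a and Atp12a could be tested and Atp4b could not. Atp4a, the gastric alpha subunit, was at 47.3 ± 3.31 CPM in Vehicle, 4.49 ± 0.903 CPM in Cisplatin and 15.6 ± 3.95 CPM in Cisplatin + KW6002. It fell by 3.40 with cisplatin (SE 0.15, adjusted p = 4.69e-15) and rose by 1.80 when KW6002 was added (SE 0.14, adjusted p = 5.21e-10). Atp12a, the colonic alpha subunit, rose by 1.08 with cisplatin (SE 0.43, adjusted p = 0.0275), a call lost without any one of 5 libraries (Vehicle 3 to 5, and Cisplatin 1 and 2, with values of 0.88 to 1.03) and with the number series as a covariate (adjusted p = 0.0602). It rose by 1.74 without Vehicle replicate 2 and by 1.88 among the 500s. Atp12a fell by 3.11 with KW6002 added (SE 0.47, adjusted p = 8.16e-06), from 41 to 76 counts per library in Cisplatin to 2 to 15 counts.

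Among 12 partners and regulators of the pump 10 could be tested, and for Cisplatin against Vehicle 3 rose and 5 fell, with a median of -0.53, where 34.6% of all tested genes rose and 35.9% fell. Pcbd1, a transcriptional cofactor known to raise Fxyd2 transcription in the distal nephron, fell by 1.33 (SE 0.08, adjusted p = 1.15e-12). With KW6002 added, Pcbd1 rose by 0.54 (SE 0.08, adjusted p = 2.95e-06). Nr3c2, the mineralocorticoid receptor, and Hsd11b2, the enzyme that keeps glucocorticoids from it, fell with cisplatin by 0.67 (SE 0.07, adjusted p = 5.01e-09) and by 0.91 (SE 0.07, adjusted p = 5.34e-11). Sgk1, a kinase induced by aldosterone and glucocorticoids, rose by 1.75 (SE 0.25, adjusted p = 1.72e-06) and was higher again, by 0.57, with KW6002 added (SE 0.23, adjusted p = 0.0430), a call lost with DESeq2 (adjusted p = 0.0673), with library size alone, with the replicate block, and without any one of 9 libraries (each Cisplatin library, and Cisplatin + KW6002 2, 4, 5 and 6), with values of 0.53 to 0.60.

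Genes of apical sodium entry, which the pump serves, had larger median changes than the other 4 lists of transport genes and pump regulators. Of 9 tested, 7 fell and 1 rose for Cisplatin against Vehicle (35.9% and 34.6% of all tested genes), with a median of -1.65, and 8 rose and none fell for Cisplatin + KW6002 against Cisplatin (28.6% and 27.2% of all tested genes), with a median of 1.54. Slc12a1, the sodium-potassium-chloride cotransporter of the thick ascending limb, fell by 1.60 (SE 0.23, adjusted p = 1.88e-06), and Slc12a3, the sodium-chloride cotransporter of the distal convoluted tubule, fell by 4.59 (SE 0.23, adjusted p = 5.22e-14). Among the epithelial sodium channel subunits, Scnn1g fell by 0.57 (adjusted p = 4.17e-05), Scnn1b had a log2 fold change of 0.040 (adjusted p = 0.647), and Scnn1a, the gene of the list that rose, had one of 0.18 (adjusted p = 0.0492). The call of Scnn1a was lost under 12 alternatives, with 0.061 among the 500s (adjusted p = 0.581) and 0.12 to 0.23 with single libraries left out. For KW6002 against Vehicle none of the tested genes of the 5 lists passed in edgeR, while Sgk1 and Atp12a had an unadjusted p below 0.05. Sgk1 came nearest (log2 fold change 1.15, adjusted p = 0.0814) and was the only one of them to pass in DESeq2. Several of the apical entry genes are also among the segment markers, and the list was not compared with the pump genes by a test.

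**Figure D4:**
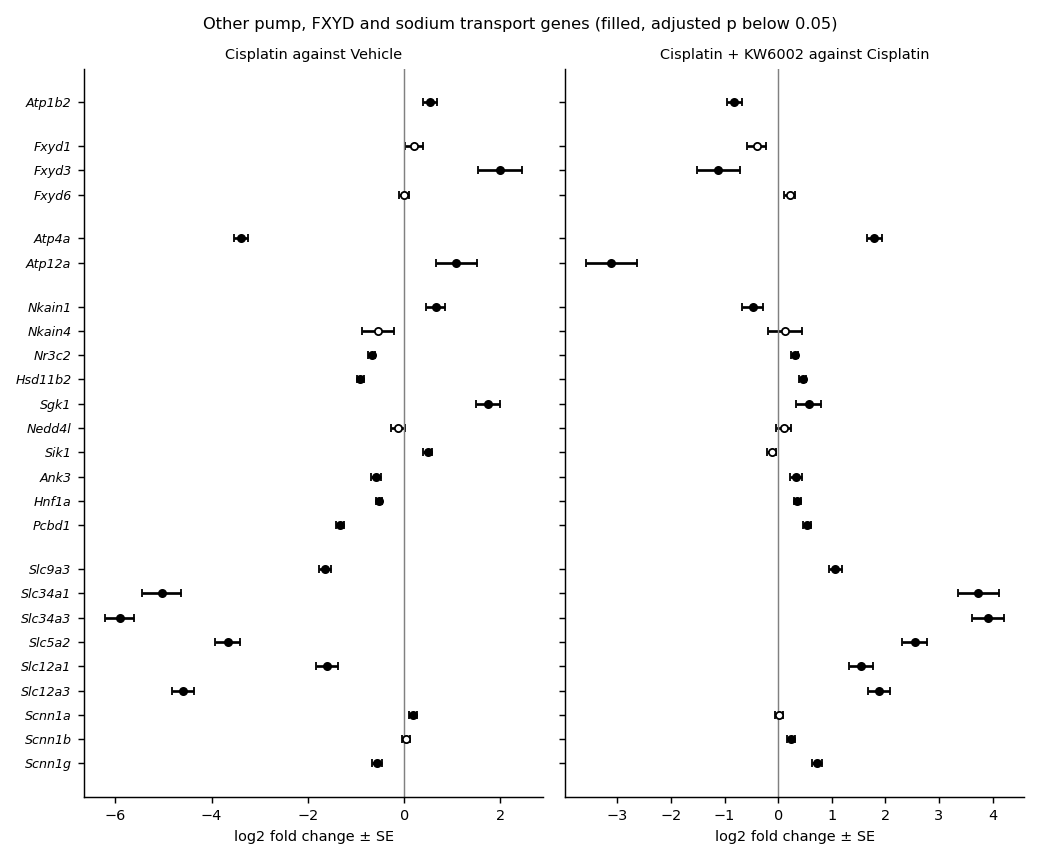
Log2 fold changes with standard errors (horizontal axes) of the tested genes of 5 lists, from top to bottom another pump subunit (Atp1b2), other FXYD genes, proton-potassium pumps, partners and regulators, and apical sodium entry, for Cisplatin against Vehicle (left) and Cisplatin + KW6002 against Cisplatin (right). Filled points passed at an adjusted p below 0.05. Slc34a3 lay farthest left with cisplatin, at -5.91, and Atp4a stood at -3.40 with cisplatin and at 1.80 when KW6002 was added.

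The genes most like each of the 5 over the 22 libraries were those with the smallest root-mean-square difference between centred log2 CPM profiles, among 10245 genes whose average log2 CPM reached 3. Pkig (0.0768 log2 units, against a spread of Atp1b1 about its own mean of 0.144) and Gimap6 were among the 3 genes most like Atp1b1. Fxyd2 was most like Coq9 (0.0775, own spread 0.492), Fars2 and Sod2. Atp1b3 was most like Mprip (0.0502, own spread 0.112), Pls3 and Leng8.

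For the 2 rising FXYD genes the differences were larger in log2 units. Fxyd4 was most like Pgm5 (0.175, own spread 0.471), Epcam and Srgap3, and Fxyd5 was most like Tubb5 (0.131, own spread 0.550), Il4ra and Tor3a. Among the 5 genes themselves, the nearest pair was Atp1b1 and Atp1b3 (0.197), which is more than the own spread of either gene, and the most distant was Fxyd2 and Fxyd5 (1.02), and Fxyd4 and Fxyd5 differed by 0.446. These values describe likeness over libraries that share their groups, and carry no test.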

How the data were processed

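Poly(A) RNA of 22 mouse kidneys was sequenced by the authors with a stranded mRNA kit as single reads of 50 bases. Per the labels and the methods, reads were mapped to mm10 with STAR, and uniquely aligned reads were counted per Ensembl gene with HTSeq 0.6.1p1. The submitters' processing notes also name bcl2fastq 2.17.1.14. The deposited values are counts, not normalized, with 1 column per library and no pooling. A further 66 columns without a name were not used. Groups came from the sample titles. Whether strand was used in counting is not given in the sources used here, and that setting decides whether reads of overlapping genes on opposite strands are told apart.

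Genes were kept with filterByExpr (minimum count 10), which left 17131 genes with 99.9% of the counts. TMM factors, 1 mean per group over 22 libraries, and quasi-likelihood F tests were used in edgeR 4.0.16 (R 4.3.3), with Benjamini-Hochberg adjustment over all genes. CPM used the TMM-scaled totals, and log2 CPM for the likeness of profiles used a prior count of 2. P-values measure the spread between these libraries, which may be technical where nothing says that they are separate mice. No 2 libraries of a group agreed within sampling noise (lowest chi-square per gene 2.81). Depth was 26471762 to 40510754 counts, and 3 counts is the limit that a count of 0 allows. Checked on simulated data, the fit recovered 188 of 200 changed genes among 17131 for Cisplatin against Vehicle, with 10 unchanged genes past the threshold. Recovery where as many as 70.5% of genes pass, as in the data for that comparison, was not tested.

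The 5 genes and all lists were chosen with earlier results of these data known. Named genes are the 5 members, listed genes, and the 3 genes most like each member, and results for a few of the listed or similar genes are not reported here. Results were recomputed with DESeq2 1.42.0, with RLE factors or unscaled library sizes, without the filter or with 10 counts required in each library, on the compared groups by themselves, with replicate number or number series added to the model, on the 500s, and with single libraries left out. Positions are from GENCODE M21, promoters from RefSeq (GRCm38.p6), and 4 of the 5 genes had a promoter entry.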

Additional observations from a re-analysis of the deposited data

Results flagged for a closer look

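Cisplatin + KW6002 replicate 6 stood apart from the other 5 libraries of its group for 2 of the 5 genes. It had 2784 CPM of Atp1b1 with the next library at 2426, and 1559 CPM of Fxyd2 with the next at 1351. In each case the gap to the nearest library was above the critical share of the group's range. Cisplatin replicate 1 had 29.7 CPM of Atp1b2, with the next library of its group at 21.4. Of 36 groups of libraries examined 3 were so marked, and chance marks about 1 in 20. Leaving out Cisplatin + KW6002 replicate 6 gave a log2 fold change of -0.046 for Atp1b1 and 0.56 for Fxyd2 against Cisplatin.

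The effect of KW6002 differed between mice with and without cisplatin by the test of that difference in edgeR for Fxyd2 (0.56 on the log2 scale), Fxyd5 (-0.77), Fxyd4 (-0.59), Atp1b3 (-0.17) and Atp1b2 (-0.88). The values for Fxyd4 and Atp1b3 did not pass among the libraries of the 500s.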

How the results depend on the processing

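For Cisplatin against Vehicle the number of the 5 genes that were lower went from 1 to 2 with the number series as a covariate and among the 500s, and was 1 to 2 when single libraries were left out. For Cisplatin + KW6002 against Vehicle it went from 1 to 2 with the replicate block, with the series covariate and among the 500s (1 to 2 with libraries left out), and the number that were higher went from 3 to 1 among the 500s. For Cisplatin + KW6002 against Cisplatin the number lower went from 2 to 3 with library size only, where Atp1b3 joined, and was 1 to 2 with libraries left out. For the difference between KW6002 effects the number lower went from 3 to 1 with no filter and among the 500s, and was 1 to 3 with libraries left out. The gene that joined in both comparisons with Vehicle was Atp1b1, and the genes lost were Fxyd4 and Atp1b3. Signs turned for these values, none of which had passed: for Atp1b1, Cisplatin against Vehicle was 0.067 and Cisplatin + KW6002 against Vehicle 0.0086 with library size only, and Cisplatin + KW6002 against Cisplatin was -0.058 with library size only, -0.0077 with RLE factors, -0.0072 with DESeq2, -0.012 with at least 10 counts in every library, -0.031 with the replicate block, and -0.046 to 0.025 with libraries left out. KW6002 against Vehicle was -0.16 for Fxyd4 among the 500s and -0.019 to 0.20 for Fxyd5 with libraries left out. Replicate numbers did not pair the libraries (median correlation of deviations 0.0085 for equal numbers, 7 of 31 pairs above 0.1, and 8 of 22 libraries correlated best with their own number), and the replicate block moved Atp1b1 for Cisplatin + KW6002 against Vehicle to -0.18 (adjusted p = 0.0250) and changed no other call of the 5 genes. The causes were not tested. Fxyd2 and Fxyd5 kept direction and call for Cisplatin against Vehicle and for Cisplatin + KW6002 against Cisplatin under all alternatives run. Low counts limit Fxyd3 and Atp12a.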
